A study of Mus musculus with 18 samples.

Results

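Early RNA loss was described for 11451 loci of mouse embryonic stem cells, out of 14864 loci in the expression table, over the first 3 h of actinomycin D. A locus was included when its level was at least 1 RPKM (reads scaled to transcript length and to the size of the library) in both 0 h libraries, that of wild type cells and that of Tet2 KO cells. The 4 libraries described were RNA-seq WT 0h, WT 3h, Tet2KO 0h and Tet2KO 3h, each a single library. Actinomycin D was given at 5 µg/ml, 3 h before collection, to the 3 h cells of both genotypes, and the 0 h cells were collected at the time of addition. All cultures were grown in serum medium with LIF on fibroblast feeder cells, so feeder RNA could be present in every library. The KO cells lack Tet2, a dioxygenase that oxidises 5-methylcytosine, and the labels do not give how the allele was made, the number of clones or the strain. The 2 genotypes served as the 2 replicates of each time. Nothing in the labels says whether the libraries came from separate cultures, so p-values measure the spread between these libraries, which may be technical.

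Actinomycin D intercalates into DNA and stops RNA polymerases from elongating, so that after its addition the RNA of a gene is lost at the rate at which it is degraded. Most mammalian mRNAs are degraded after their poly(A) tail is shortened, by decapping and 5′ to 3′ digestion or by the exosome. Messages of signalling feedback inhibitors, immediate early genes and many transcription factors are known for short lives, and messages of metabolic enzymes and ribosomal proteins for long ones. Each library was scaled to its own total, so every level below is a share of the RNA left and not an amount per cell. A locus that kept its RPKM followed the bulk of its library, and a higher RPKM at 3 h can be had with no new RNA. In bulk RNA, fewer cells of a type and less RNA per cell cannot be told apart.

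The libraries carried the markers of the labelled cell type. Of 12 embryonic stem cell markers listed, 10 were members, with a summed level of 1080 RPKM at 0 h and 1300 RPKM at 3 h in wild type, and 1110 and 1270 RPKM in Tet2 KO. Without Pou5f1 the sum was lower at 3 h (Pou5f1 was at 415 and 737 RPKM, and 528 and 765 RPKM), while 6 of the 10 were lower in both genotypes and 3, Zfp42, Klf4 and Fgf4, were lower by size (medians -0.39 and -0.20). Of 20 fibroblast markers, 17 were members, and their summed level was 290 RPKM at 0 h and 429 RPKM at 3 h in wild type, and 280 and 379 RPKM in Tet2 KO. Tet2 RNA stood at 23.7 RPKM in wild type and 23.0 RPKM in Tet2 KO at 0 h, so its level did not separate the genotypes, and it is no check of a deletion whose position is unknown here. At 3 h Tet2 was at 17.9 and 11.2 RPKM (adjusted p = 0.285, limma). The number of reads per library is unknown. Low values gave 2 solutions of similar fit for the depth relative to Tet2 KO 3 h, 1.31 or 2.63 for Tet2 KO 0 h, 1.78 or 0.89 for wild type 3 h and 2.27 or 1.14 for wild type 0 h, so relative depth is not settled either.

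The typical locus kept its share of the library over 3 h, with a wide spread around it. The median difference, 3 h minus 0 h on the log2(RPKM + 1) scale, was -0.05 in wild type (quartiles -0.44 and 0.26) and -0.07 in Tet2 KO (quartiles -0.53 and 0.30). A locus is called lower by size here when the difference was -1 or less in both genotypes, which is at least 2-fold on that scale. It is called held when both differences lay within 0.25 of 0, and higher by size when both were at least 0.5. By these rules 384 members were lower (3.35% of members), 1704 held (14.9%) and 314 were higher (2.74%). The lower members were 39.1% of the 982 that passed in wild type (8.58% of members) and 33.6% of the 1142 that passed in Tet2 KO (9.97%). The held members were 38.3% of 4446 (38.8%) and 44.6% of 3820 (33.4%), and the higher members 23.9% of 1313 (11.5%) and 19.2% of 1636 (14.3%). A further 152 members (1.33%) were lower by size in 1 genotype and at least 0.5 higher in the other. The differences of the 2 genotypes correlated across members with Pearson's r of 0.39 and Spearman's rank coefficient of 0.36, as a description over 11451 loci that share their 4 libraries. The r was 0.24 for the 4436 members whose lower 0 h level was under 5 RPKM and 0.52 for the 2667 of at least 20 RPKM. The split of lower against higher members depended on the scaling, with 284 against 485 after quantile normalization and 784 against 77 when each library was scaled to its ribosomal protein and oxidative phosphorylation genes. The latter scaling moved the median of all members to -0.29 in wild type and -0.46 in Tet2 KO, and gene lists are therefore read against the median of all members.

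**Figure D1:**
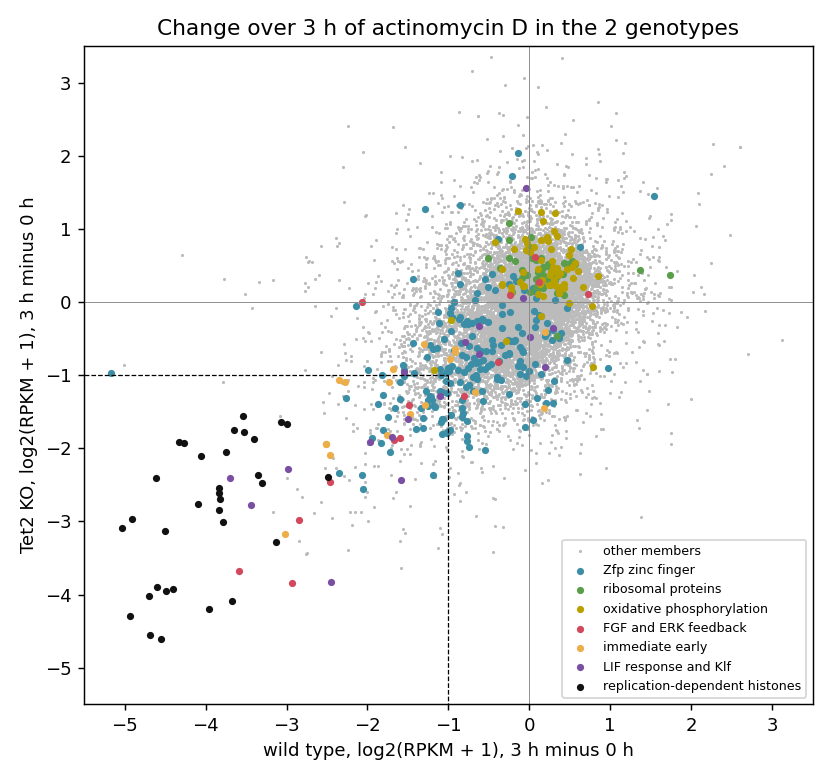
Each point is a member, with its log2(RPKM + 1) difference, 3 h minus 0 h, in wild type on the x axis and in Tet2 KO on the y axis, and 7 gene lists in colour. The dashed corner at -1 on both axes holds the 384 members lower by size, among them all 33 histone members. A further 15 members fall outside the axes.

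A test across loci singled out far fewer. With limma on log2(RPKM + 1), fitted to 13205 loci in all 6 RNA-seq libraries with genotype as a block, 58 members fell (0.507% of members) and 4 rose (0.0349%) at an adjusted p under 0.05. No locus outside the members was called, so these were 0.439% and 0.0303% of all loci fitted. At an unadjusted p under 0.05 the counts were 1354 lower (11.8%) and 419 higher (3.66%). In each of the 62 called loci the 0 h and 3 h values did not overlap. Picking loci by a small p makes this likely, and the share over all members was not counted, so it adds no support. The RNA left at 3 h among those that fell was 2.08% to 35.9% of the 0 h RPKM in wild type and 0.728% to 33.2% in Tet2 KO. Of the 58, 18 were in the replication-dependent histone list and 40 were not. Among the 40 are the loci listed as Gm42743 with Hist2h2bb and as Hist3h2a with Trim17, which carry histone symbols too. Gm22625 and Gm26268, also among the 40, gave near-identical values and so count as a single observation. The calls leaned on single libraries: none of the 58 passed without the wild type 3 h or without the Tet2 KO 3 h library. Without either 0 h library the set that fell also changed, losing some of the 58 and gaining other members. Without either 6 h library fewer fell, all of them among the 58. All 62 kept their direction in each of these fits. On data simulated for this comparison with 2 residual degrees of freedom, the fit recovered 0% of loci lowered by 1 on the log2 scale, 64% of those lowered by 2 and 96% of those lowered by 3, so most 2-fold falls could not pass it.

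The replication-dependent histone mRNAs were the largest group among the falls. These genes supply histones during S phase, and their mature messages end in a stem-loop in place of a poly(A) tail and are degraded fast when DNA synthesis stops. All 33 members of the list, which holds single symbols only, were lower by size (against 3.35% of all members). By the test 18 fell (against 0.507% of all members). The median difference was -3.84 in wild type and -2.69 in Tet2 KO. The RNA left at 3 h was a median 4.27% of the 0 h level in wild type (1.61% to 11.4%) and 9% in Tet2 KO (0.728% to 29.6%). Because poly(A) RNA was selected, the levels stand for those histone transcripts that passed the selection. The upstream sequences of 4 early-falling genes are shown because the histone promoters in this group more often carried TATAAA, the core of the TATA box, than did other early-falling promoters. They are the 150 bases before each RefSeq start on GRCm38.p6, with TATAAA on the gene's strand in capitals: Hist1h1b at chr13:21780626-21780775 on the minus strand, Hist1h3b at chr13:23752195-23752344 and Btg1 at chr10:96616851-96617000 on the plus strand, and Dusp6 at chr10:99263081-99263230 on the plus strand.
Hist1h1b: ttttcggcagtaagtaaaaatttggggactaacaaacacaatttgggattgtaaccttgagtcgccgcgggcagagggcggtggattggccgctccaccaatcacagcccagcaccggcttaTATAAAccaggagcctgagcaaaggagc
Hist1h3b: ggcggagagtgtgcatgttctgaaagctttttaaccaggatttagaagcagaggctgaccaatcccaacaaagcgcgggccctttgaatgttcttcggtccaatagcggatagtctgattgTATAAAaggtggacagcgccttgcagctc
Btg1: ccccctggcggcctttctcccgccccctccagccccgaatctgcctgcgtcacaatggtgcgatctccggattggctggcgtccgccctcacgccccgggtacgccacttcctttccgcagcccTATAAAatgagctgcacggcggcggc
Dusp6: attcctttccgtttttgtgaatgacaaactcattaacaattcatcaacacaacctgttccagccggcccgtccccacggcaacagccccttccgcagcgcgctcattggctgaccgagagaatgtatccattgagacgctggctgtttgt
The motif began 28 bases before the start in Hist1h1b, 29 in Hist1h3b and 26 in Btg1, and the letters were not found in the Dusp6 stretch. Not every named histone gene had them, as they were absent from this stretch in Hist1h2bq, Hist1h2bk, Hist1h2bl, Hist1h3d and Hist1h3e.

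The search took TATAAA on both strands of windows of 300 bases, and it ignored overlap with other motifs. It was found in 18 of the 29 lower histone genes with a promoter in the table (62.1%) and in 8.56% of the 222 other protein-coding members lower by size. The held members had it in 8.97%, the higher members in 7.53% and all 6809 protein-coding members matched in 8.64%, beside 13.6% of all 32851 promoter windows. A second search took the gene's strand alone, with the motif beginning 20 to 45 bases before the start. Its shares were 27.6% for the histone genes, 2.25% for the other lower members and 1.23% for all matched members. The histone windows had a median GC content of 44.3%, against 61.3% for all matched members, and the part of base composition in these shares was not tested.

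Linker and core histone genes shared the pattern. Hist1h1b, a linker histone, stood at 189 RPKM at 0 h and 7.08 RPKM at 3 h in wild type and at 130 and 4.36 RPKM in Tet2 KO (log2 difference -4.58, SE 0.29, adjusted p = 0.0146 by limma). Hist1h1a, the most abundant of the 33 at 0 h, went from 496 to 21.2 RPKM and from 352 to 21.9 RPKM (-4.22, SE 0.33, adjusted p = 0.0182 by limma). The locus of Gm42743 with Hist2h2bb, outside the list, was higher at 0 h, at 1050 RPKM in wild type and 845 RPKM in Tet2 KO. Both genotypes lost nearly all of the Hist1h1b and Hist1h1a messages. Hist1h2bq, an H2B gene, went from 355 to 10.7 RPKM and from 142 to 6.27 RPKM (-4.62, SE 0.24, adjusted p = 0.013). Hist1h3a, an H3 gene, went from 89.0 to 2.5 RPKM and from 27.1 to 0.197 RPKM (-4.62, SE 0.46, adjusted p = 0.0321). The H2B gene started higher in wild type, and in 32 of the 33 members the 0 h level was lower in Tet2 KO than in wild type, with medians of 22.4 and 89 RPKM. Hist1h4a, an H4 gene outside the naming rule, was at 164 and 18.6 RPKM in wild type and at 21.6 and 6.28 RPKM in Tet2 KO (-3.07 and -1.63) and did not pass (adjusted p = 0.158). Near-identical histone copies share reads, and the labels do not give how the authors split them, so single copies are uncertain.

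Feedback inhibitors and ligands of FGF signalling also held several falls. FGF4, made by the stem cells themselves, signals through ERK, and the ERK pathway induces its own brakes, the Sprouty proteins and the dual-specificity phosphatases. Of the 14 members of that list 4 fell (against 0.507% of all members) and 7 were lower by size (50.0%, against 3.35%). The median difference was -1.54 in wild type and -1.35 in Tet2 KO. Fgf4, the ligand, was at 34.0 RPKM at 0 h and 1.91 RPKM at 3 h in wild type and at 34.2 and 1.76 RPKM in Tet2 KO (-3.63, SE 0.32, adjusted p = 0.0274 by limma). The 2 genotypes gave nearly the same values. Dusp6, an ERK phosphatase, went from 24.7 to 2.37 RPKM and from 39.3 to 1.81 RPKM (-3.39, SE 0.32, adjusted p = 0.0274). Spry4, an inhibitor of receptor tyrosine kinase signalling, went from 28.5 to 3.11 RPKM and from 32.4 to 3.22 RPKM (-2.91, SE 0.25, adjusted p = 0.0274). Its relative Spry2 kept 15.7% of its 0 h level in wild type and 15.0% in Tet2 KO (adjusted p = 0.0274). Dusp4, Il17rd and Fgf15, chosen after their values were seen, were also lower by size and did not pass, with 8.5% to 22.1% left.

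Members of the list of LIF response and Klf genes were also lower. LIF is the cytokine that keeps these cells undifferentiated through STAT3, and the list is not confined to its targets. Of 18 members 4 fell (against 0.507% of all members) and 9 were lower by size (50.0%, against 3.35%). The medians were -1.30 in wild type and -1.12 in Tet2 KO. Socs3, the feedback inhibitor of STAT3 signalling, went from 21.4 to 1.07 RPKM in wild type and from 17.4 to 1.69 RPKM in Tet2 KO (-3.11, SE 0.29, adjusted p = 0.0274 by limma). Klf2, a zinc finger factor of the naive state, went from 11.5 to 0.582 RPKM and from 9.28 to 1.11 RPKM (-2.63, SE 0.30, adjusted p = 0.0386). Both genes were named by their fall or small p, so the gap between their 3 h and 0 h values adds no support. Gbx2, a homeobox factor, went from 9.84 to 0.988 RPKM and from 20.5 to 0.514 RPKM (adjusted p = 0.0409). Pim3, a serine/threonine kinase, kept 3.02% in wild type and 12.5% in Tet2 KO (adjusted p = 0.0409). Klf4, a reprogramming factor, was at 6.06 and 1.35 RPKM in wild type and 8.95 and 0.833 RPKM in Tet2 KO and did not pass (adjusted p = 0.0702).

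**Figure D2:**
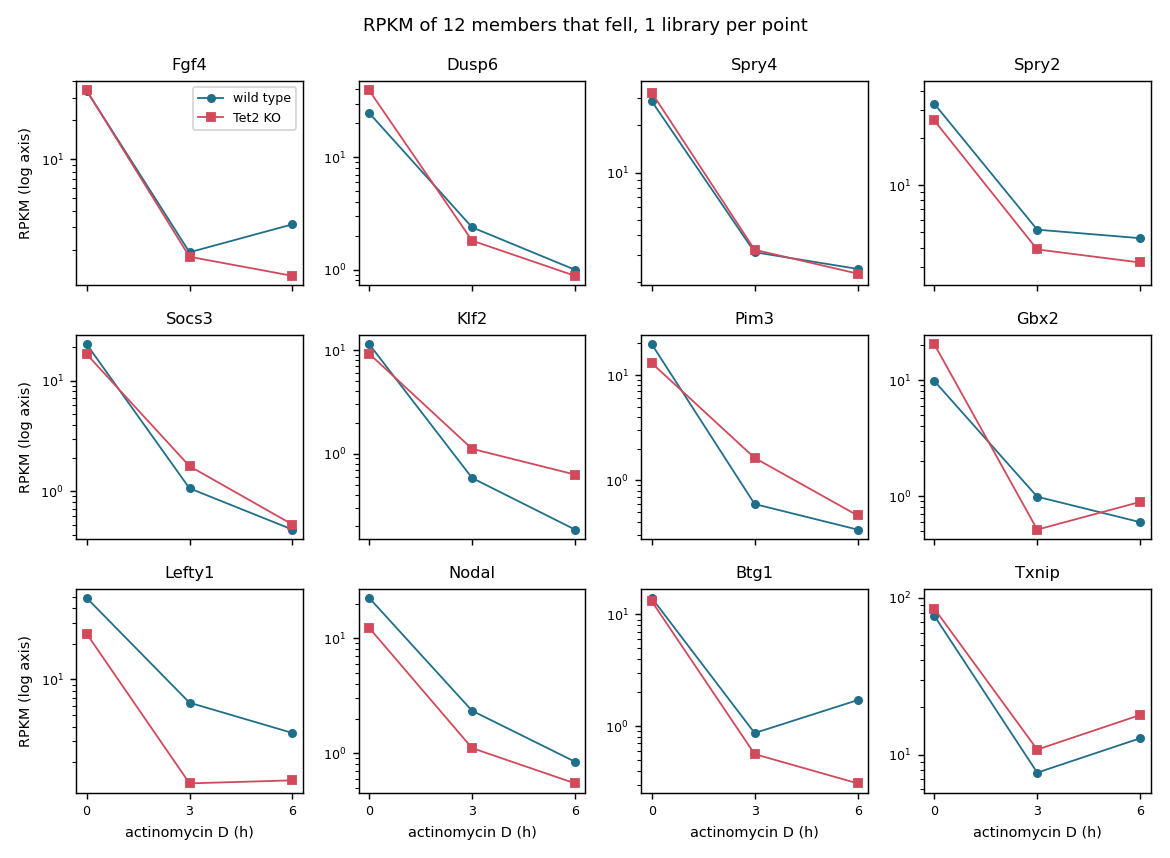
RPKM on a log axis against hours of actinomycin D for 12 members that fell, with 1 library per point, circles for wild type and squares for Tet2 KO. The 12 were chosen from the members that fell by the test. In every panel both 3 h points lie below both 0 h points, which that choice makes likely and which adds no support. Fgf4 was at 34.0 and 34.2 RPKM at 0 h and at 1.91 and 1.76 RPKM at 3 h.

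The targets of Nodal and BMP signalling, ligands of the TGF-beta family that act through SMAD proteins, held 3 falls among 11 members (against 0.507% of all members). By size 5 were lower (45.5%, against 3.35%), with medians of -1.31 in wild type and -1.12 in Tet2 KO. Lefty1, a secreted Nodal inhibitor, went from 48.9 to 6.36 RPKM in wild type and from 24.4 to 1.32 RPKM in Tet2 KO (-3.11, SE 0.30, adjusted p = 0.0274 by limma). Nodal itself kept 10.4% and 8.98% (adjusted p = 0.0347), and Smad7, an inhibitory SMAD, kept 13.9% and 14.9% (adjusted p = 0.0409). Ligand and inhibitors thus all fell in both genotypes. Id1, a BMP target that blocks basic helix-loop-helix factors, was at 21.2 and 6.54 RPKM in wild type and 20.3 and 7.51 RPKM in Tet2 KO (adjusted p = 0.0848).

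The immediate early list, named for genes that growth signals induce without new protein synthesis, held 3 falls among 18 members (against 0.507% of all members). By size 10 were lower (55.6%, against 3.35%), with medians of -1.58 and -1.17. Btg1 was put in this list but encodes an antiproliferative protein, which binds the CCR4-NOT deadenylase. It went from 14.1 to 0.867 RPKM in wild type and from 13.1 to 0.562 RPKM in Tet2 KO (-3.10, SE 0.33, adjusted p = 0.0352 by limma). Egr1, a zinc finger factor, kept 6.82% and 6.25% (adjusted p = 0.0409), and Ier2 kept 10.4% and 14.9% (adjusted p = 0.0457). Myc, whose short-lived message is a textbook case, was at 12.4 and 1.35 RPKM in wild type and 18.8 and 4.17 RPKM in Tet2 KO and missed the threshold (adjusted p = 0.0685). The NF-kB feedback list had 4 of 11 members lower by size (36.4%) and no call (medians -0.92 and -0.54). In it Nfkbia, the inhibitor that holds NF-kB in the cytoplasm, kept 12.9% in wild type and 29.6% in Tet2 KO (adjusted p = 0.0932). Counted once, the 5 signalling lists had 72 members, of which 35 were lower by size (48.6%, against 3.35% of all members), 14 fell, 3 held and 0 were higher by size. Their medians stayed below that of all members in both genotypes under the 6 alternatives of scaling, pseudocount, several symbols and member threshold. The lists were chosen with earlier results of these data known, so the counts are no independent evidence.

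**Figure D3:**
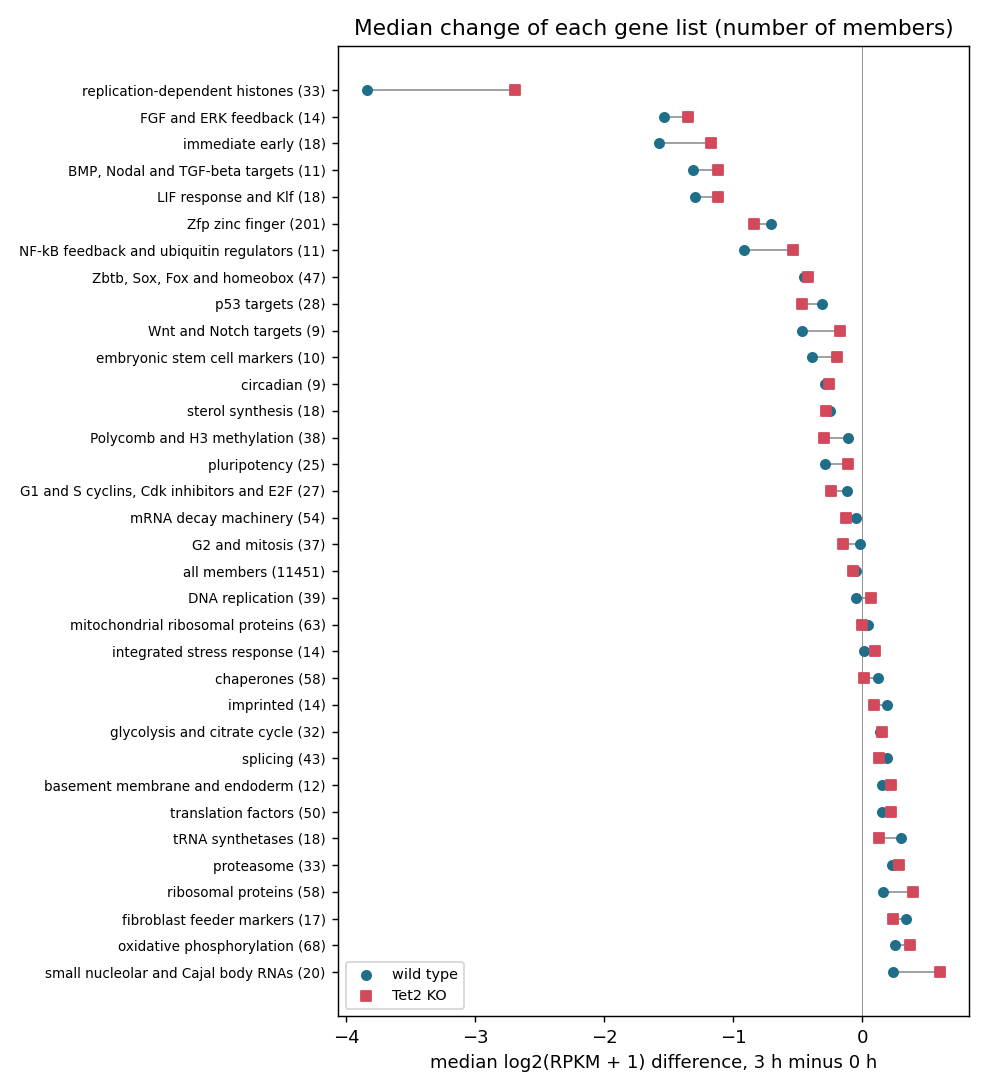
Median log2(RPKM + 1) difference, 3 h minus 0 h, for each list of at least 5 members and for all members, with circles for wild type and squares for Tet2 KO and the number of members in brackets. Histones lie lowest (-3.84 and -2.69) and the signalling lists next. Oxidative phosphorylation (0.25 and 0.37) and ribosomal proteins (0.16 and 0.39) lie above 0. Scaling libraries to those 2 lists puts them near 0 by construction (-0.04 and -0.09, and -0.13 and -0.08).

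Zinc finger genes with Zfp symbols were mostly lower, and by less. Many of them are KRAB repressors that bind transposons through TRIM28. Of 201 members 40 were lower by size (19.9%, against 3.35% of all members) and 3 fell by limma (against 0.507%). At all in both genotypes 151 were lower (75.1%, against 35.9% of all members). The medians were -0.71 in wild type and -0.84 in Tet2 KO, and their distance from all members was kept in sign under the alternatives run. Zfp296, a factor abundant in pluripotent cells, went from 10.2 to 1.18 RPKM in wild type and from 8.38 to 0.857 RPKM in Tet2 KO (-2.35, SE 0.26, adjusted p = 0.0366 by limma). Zfp655 kept 19% and 14.6% (adjusted p = 0.0409), and Zfp958 kept 19.8% and 14.3% (adjusted p = 0.0422). Only 2 of the family were higher by size, Zfp672 and Zfp369, both named after their values were seen. Among 47 Zbtb, Sox, Fox and homeobox members 5 were lower by size (10.6%) and none was called (medians -0.45 and -0.42). Trim28, by contrast, held at a high level, with 665 and 678 RPKM in wild type and 788 and 874 RPKM in Tet2 KO.

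The core pluripotency factors were lost early about as often as all members. Of 25 members 1 was lower by size (4.0%, against 3.35% of all members), 1 was higher by size (4.0%, against 2.74%) and none was called (medians -0.29 and -0.11). Nanog, outside the naming rule, was at 71.0 and 56.0 RPKM in wild type and at 72.0 and 60.8 RPKM in Tet2 KO (adjusted p = 0.519 by limma). Pou5f1, which encodes OCT4, was at 415 and 737 RPKM and at 528 and 765 RPKM, higher at 3 h in both genotypes without passing (0.68, SE 0.21, adjusted p = 0.24). Zfp42, which encodes the naive marker REX1, was the lower member, at 120 and 52.5 RPKM and at 30.6 and 10.8 RPKM (-1.30, SE 0.22, adjusted p = 0.0848).

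Stress genes were split. Plk2, a kinase induced by p53, went from 23.2 to 4.90 RPKM in wild type and from 22.0 to 3.93 RPKM in Tet2 KO (-2.13, SE 0.28, adjusted p = 0.047 by limma). It was the single call among 28 p53 targets, of which 7 were lower by size (medians -0.31 and -0.47), Mdm2 and Cdkn1a among them. Mdm2, the ubiquitin ligase that marks p53 for degradation, was at 77.3 and 29.6 RPKM and at 76.6 and 31.0 RPKM (adjusted p = 0.0685). Trib3, a pseudokinase of the integrated stress response, went from 7.74 to 0.869 RPKM and from 9.84 to 1.00 RPKM (adjusted p = 0.0454). Its list of 14 members had 3 lower by size (21.4%, against 3.35% of all members) and 5 held (35.7%, against 14.9%). The list medians were 0.01 and 0.10. Relative to all members these were 0.06 and 0.17, and the wild type value became -0.04 after quantile normalization and -0.06 among members of at least 5 RPKM, with Tet2 KO at 0.09 and 0.07. Atf4, its central factor, was at 97.2 and 32.6 RPKM and at 92.2 and 31.0 RPKM and did not pass (adjusted p = 0.0634). Dnajb1, an HSP40 co-chaperone, kept 17.5% and 10.5% (adjusted p = 0.0379 by limma). Of the 58 chaperone members 2 in all were lower by size (3.45%), near the share of all members.

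Txnip, an inhibitor of thioredoxin and of glucose uptake, belonged to no list and was named by its fall, ranked by the genotype that moved less. It went from 76.9 to 7.68 RPKM in wild type and from 85.4 to 10.8 RPKM in Tet2 KO (-3.02, SE 0.21, adjusted p = 0.0176 by limma). Of the 300 protein-coding members lower by size, 164 were in no list, and 11 of those fell by the test. The rest of the paragraph names some of them after their values were seen. Slc38a2, a neutral amino acid transporter, kept 13.7% and 12% (adjusted p = 0.0274), and Epha2, an ephrin receptor, kept 12% and 14.1% (adjusted p = 0.0321). Errfi1, an inhibitor of the EGF receptor, kept 10.1% and 11.2% (adjusted p = 0.0356). Sgk1, a kinase induced by serum and glucocorticoids, went from 43.1 to 8.93 RPKM and from 68.6 to 13.6 RPKM (adjusted p = 0.0356). Trmt10c, a subunit of mitochondrial RNase P, kept 14.9% and 5.4% (adjusted p = 0.0409).

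The host transcript of the miR-17 to miR-92a cluster on chromosome 14 fell as well, and it was chosen after its values were seen. The locus, listed with 7 symbols, stood at 7.21 RPKM at 0 h and 0.519 RPKM at 3 h in wild type and at 8.59 and 0.236 RPKM in Tet2 KO (-2.70, SE 0.28, adjusted p = 0.0347 by limma). Both genotypes kept under 8% of it at 3 h. The value is that of the long host RNA, and the mature miRNAs were not measured here. Their RefSeq sequences are shown because the host carries miRNAs of 4 seed families, with the seed, bases 2 to 8, in capitals.
miR-17-5p: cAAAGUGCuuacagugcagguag
miR-20a-5p: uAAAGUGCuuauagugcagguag
miR-18a-5p: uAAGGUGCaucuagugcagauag
miR-19a-3p: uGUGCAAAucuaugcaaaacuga
miR-19b-3p: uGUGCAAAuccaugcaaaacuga
miR-92a-3p: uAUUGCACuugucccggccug
miR-17-5p and miR-20a-5p share the seed AAAGUGC, and miR-19a-3p and miR-19b-3p share GUGCAAA. Of 151 members that carry a miRNA symbol 3 were lower by size, 29 held and 5 were higher (medians -0.04 and -0.03), which is near the shares of all members (3.35%, 14.9% and 2.74%).

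Among cell cycle genes other than histones, the replication and mitosis lists held more often than all members and the G1 and S list did not. Of 39 DNA replication members 14 held (35.9%, against 14.9% of all members) and 0 were lower by size. Of 37 G2 and mitosis members 13 held (35.1%) and 1, Plk4, the kinase that starts centriole duplication, was lower by size. Among 27 G1 and S members 4 held (14.8%), 3 were lower by size (11.1%, against 3.35% of all members) and none was called. They were Fbxo5, an inhibitor of the anaphase-promoting complex, Cdkn2d, a CDK4 inhibitor, and E2f3. Fbxo5 kept 18.4% in wild type and 6.95% in Tet2 KO (adjusted p = 0.107 by limma). Ccna2, cyclin A2, chosen after its values were seen, was at 41.8 and 47.2 RPKM in wild type and at 61.4 and 60.8 RPKM in Tet2 KO. The RNA decay machinery had 54 members, of which 2 were lower by size (3.7%, against 3.35% of all members). A further 2 were higher by size (3.7%, against 2.74%), so both shares were near those of all members. The 2 lower members were Tob1 (24.9% and 18.9% left, adjusted p = 0.0848 by limma) and Zfp36l2 (25.6% and 18.5%, adjusted p = 0.0847), both regulators that promote deadenylation.

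The most abundant RNAs that held included messages of glycolysis and of the ribosome, named by their level. Gapdh, a glycolytic enzyme, was at 980 and 1130 RPKM in wild type and at 951 and 1080 RPKM in Tet2 KO, and Eno1, another, at 1050 and 1120 RPKM and at 1040 and 1100 RPKM. In both genes the values at the 2 times lay within 0.25 on the log2 scale. Rpl18, a protein of the large ribosomal subunit, was at 1790 and 1990 RPKM and at 1550 and 1830 RPKM, and Rps15a and Rps27 of the small subunit also held. No member of the ribosomal protein (58), oxidative phosphorylation (68), proteasome (33), translation factor (50), splicing (43), tRNA synthetase (18) or glycolysis and citrate cycle (32) lists was lower by size, and none was called. Against 14.9% of all members, 10.3% of ribosomal protein, 13.2% of oxidative phosphorylation, 16% of translation factor, 21.2% of proteasome, 27.9% of splicing, 27.8% of tRNA synthetase and 34.4% of glycolysis and citrate cycle members held, so the first 3 were near the share of all members. The held share also rose with 0 h level, as given above, and the part of level in these shares was not tested. The medians of these 7 lists were 0.13 to 0.39 above 0 in both genotypes. They depend on the scaling. Set against all members, the ribosomal protein, splicing and glycolysis lists changed side in 1 genotype after quantile normalization. Scaling to the first 2 lists puts those 2 near 0 by construction, so their signs there are no result. Under it the medians of the other lists were negative in at least 1 genotype, as for splicing with -0.09 in wild type and -0.33 in Tet2 KO. Among 63 mitochondrial ribosomal protein members Mrpl2 alone was lower by size (1.59%, against 3.35% of all members). It kept 23.1% in wild type and 43.3% in Tet2 KO (adjusted p = 0.0919 by limma).

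A few loci had a higher share of the library at 3 h in both genotypes. Mapre1, a protein that tracks microtubule plus ends, was the single named gene that rose, from 13.0 to 66.4 RPKM in wild type and from 17.1 to 79.9 RPKM in Tet2 KO (2.22, SE 0.20, adjusted p = 0.0274 by limma). The other 3 called loci are gene models, of which Gm2007 and Gm11007 gave near-identical values and so count as a single observation. None of the 4 calls was left without either 3 h or either 6 h library, or with no filter on low values. Golt1b, a Golgi transport protein, was at 13.6 and 39.6 RPKM and at 13.6 and 39.4 RPKM (1.47, SE 0.22, adjusted p = 0.0698). Uchl1, a deubiquitinase, was at 45.7 and 103 RPKM and at 37.5 and 157 RPKM (adjusted p = 0.0842), and Nptn, a cell adhesion protein, at 38.7 and 87.7 RPKM and at 36.4 and 105 RPKM (adjusted p = 0.0685). In these 3 the 3 h values exceeded the 0 h values in both genotypes and the test was not passed. Eif3b, a subunit of the initiation factor eIF3, and Psmc3, a proteasome ATPase, were about as much higher in each genotype (1.11 and 1.03, adjusted p = 0.103 and 0.108).

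**Figure D4:**
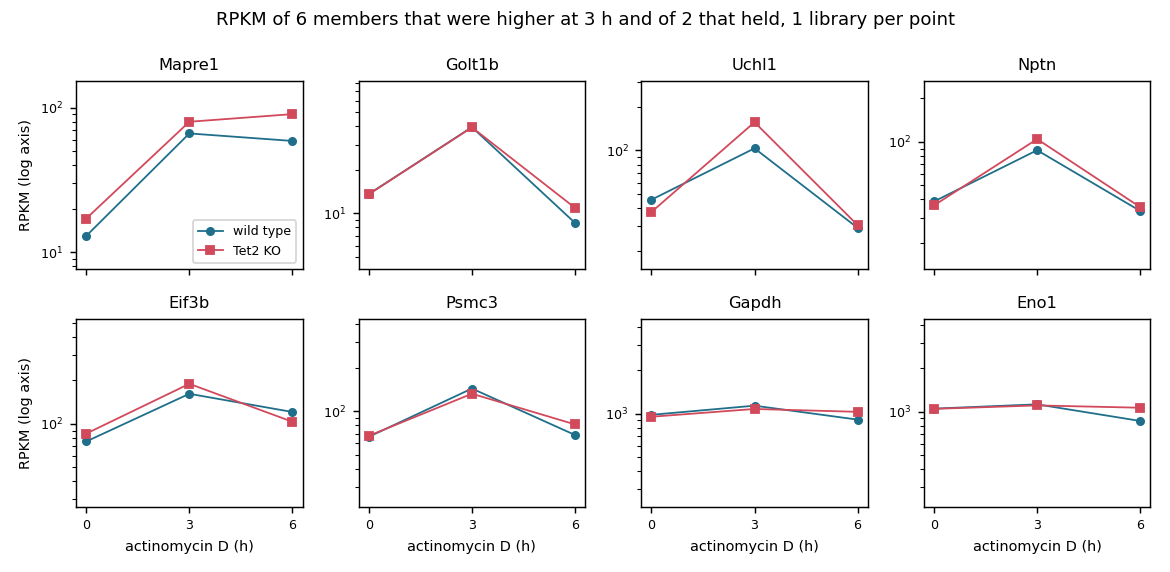
RPKM on a log axis against hours of actinomycin D for 6 members that were higher at 3 h and for Gapdh and Eno1, which held, with 1 library per point, circles for wild type and squares for Tet2 KO. The 6 were chosen for their high 3 h values; Golt1b, Uchl1 and Nptn are highest at 3 h in both genotypes, as for Golt1b with 13.6, 39.6 and 8.61 RPKM in wild type.

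Fibroblast markers and basement membrane and endoderm genes had medians above that of all members. Of the 17 fibroblast marker members 12 were higher at all in both genotypes (against 27.7% of all members). By size 2 were higher (against 2.74%) and 0 were lower (against 3.35%), with medians of 0.34 and 0.24. Of the 12 basement membrane and endoderm members 3 were higher by size (against 2.74%) and 0 lower (against 3.35%). Their medians were 0.15 and 0.22. In both lists 0 lower is near the share of all members for lists so small. When libraries were scaled to the ribosomal protein and respiratory chain genes, the fibroblast medians were 0.07 and -0.19 and the endoderm medians -0.11 and -0.23, both still above the medians of all members. Acta2, smooth muscle actin, was at 43.7 and 77.4 RPKM in wild type and at 41.1 and 73.9 RPKM in Tet2 KO (adjusted p = 0.204 by limma), and Col6a1, a collagen VI chain, at 7.79 and 14.5 RPKM and at 8.58 and 13.3 RPKM. Sparc, a secreted matrix protein that fibroblasts and endoderm both make, was at 131 and 201 RPKM and at 121 and 189 RPKM (adjusted p = 0.239). Both genotypes moved alike in these genes, and none passed. The summed level of the fibroblast markers was higher alongside the held and higher lists above, and its part in them was not tested.

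By RNA class, protein-coding members (8381) were lower by size in 3.58% and held in 16%. Of 1199 pseudogene members 0.334% were lower, with medians of 0.12 and 0.26. Small nuclear RNA genes, many of them near-identical copies of U-type spliceosomal RNAs that share reads, were lower by size in 20.3% of 138 members (medians -1.23 in wild type and -0.52 in Tet2 KO), and Gm24018 was the single one that fell. Small nucleolar RNAs were lower in 0% and higher in 16.7% of 60 members (medians 0.02 and 0.42). Both classes lack poly(A) tails, so their levels depend on what passed the selection.

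Among protein-coding members the early losses were more common in genes with a short genomic span, given here as a description. In 5 groups of equal size, from the shortest spans to the longest, the share lower by size was 7.16%, 4.71%, 2.81%, 2.03% and 1.19%. Without the histone genes, all of which are short, the first of these was 5.29%. The median span was 13.0 kb for lower members, 30.0 kb for held members, 18.8 kb for higher members and 25.3 kb for all, so a span below that of all members was not particular to the losses. The span covers introns and is not the length of the RNA. Split by listed m5C sites, 3.44% of the 3519 members with at least 1 site were lower by size, and 3.68% of the 4862 with none. A site counted anywhere within the genomic span, on either strand. Span was not matched between these groups, so its part in the 2 shares was not tested. At 20 RPKM or more at 0 h the shares were 2.65% of 868 and 3.70% of 864.

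**Figure D5:**
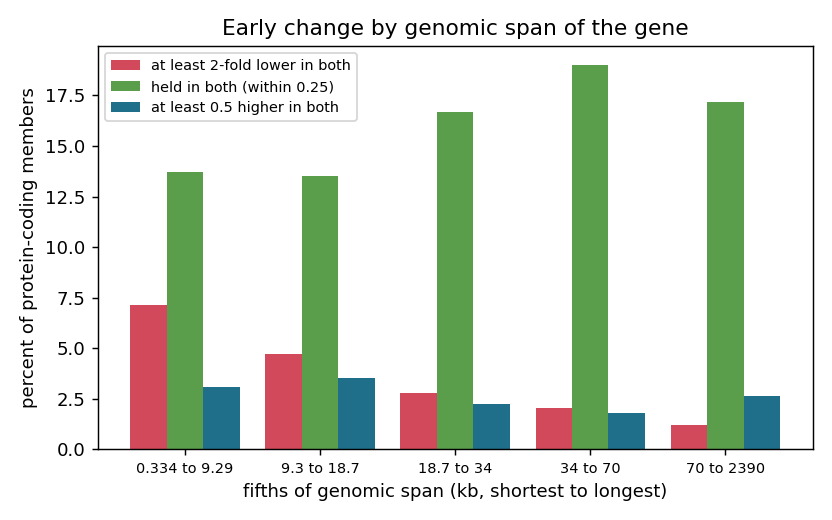
Bars give the percent of protein-coding members that were lower, held or higher by size in both genotypes, in 5 groups of genomic span from the shortest (0.334 to 9.29 kb) to the longest (70.0 to 2390 kb). The share of lower members declines from 7.16% to 1.19%.

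The 6 h libraries, which share their 0 h controls with the 3 h comparison, show where these sets went next. Members lower by size at 3 h kept a median 25.5% of their 0 h level at 3 h in both genotypes, and 15.7% in wild type and 17.9% in Tet2 KO at 6 h. Held members kept 102% and 101% at 3 h and 76.1% and 88.9% at 6 h. Higher members were at 182% and 183% at 3 h and at 131% and 137% at 6 h. Since the sets were chosen by their 3 h values, a later move toward the 0 h level is no finding about them. The medians of all members were 96.5% and 94.8% at 3 h and 73.8% and 80.6% at 6 h. Fgf4 was at 3.14 RPKM at 6 h in wild type and 1.25 RPKM in Tet2 KO, and Golt1b was back at 8.61 and 10.9 RPKM.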

How the data were processed

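Expression was measured by RNA-seq in 6 libraries, and 4 bisulfite samples gave sites of m5C; 8 of the 18 samples of the series were not analysed here. Poly(A) RNA was selected, then depleted of rRNA, and prepared with a stranded kit, per the labels' protocols. The deposited RNA table holds RPKM per locus, per the file headers; the wild type 0 h header lacks a letter and was taken to mean RPKM too. The deposited site tables hold m5C levels as a fraction, per the file headers, and only whether a gene has a listed site was used. Bowtie2, Cufflinks, DESeq2, MACS2 and the build mm10 are named in the submitters' processing notes, with roles and versions not given in the sources used here. Strand use in counting and the handling of multiply mapped reads and overlapping genes are not given either, so reads of copies and antisense partners cannot be told apart.

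The 3 h and 0 h levels were compared on the scale log2(RPKM + 1) by limma (version 3.58.1, R 4.3.3). On it the change of a low locus comes out too small. The model had a mean trend, empirical Bayes moderation, genotype as a block and time as a factor with levels 0, 3 and 6 h (2 residual degrees of freedom). Tests were two-sided, with Benjamini-Hochberg adjustment over all 13205 loci of mean RPKM 0.5 or more in the 0 h and 3 h libraries, which hold every member, and a threshold of 0.05. Log2 differences with SE are from this fit. The fit was tested on simulated data. Members and the 35 gene lists were chosen with earlier results of these data known. One list, of mitochondrially encoded genes, had no member. Genes named are, by rule, the 20 largest falls among those called and the 12 largest rises, both ranked by the genotype that moved less, the 8 highest held members, 4 of each list by smallest p, and Tet2; other names are stated as chosen later. Since under 5 rises passed, rises were ranked among members of at least 5 RPKM at 0 h. The 719 loci with several symbols stayed in the counts. Of 10732 single symbols 9884 matched RefSeq by symbol and 145 by synonym. Of members just inside the 1 RPKM threshold the median difference was -0.118 and -0.202, and of those just outside -0.15 and -0.233. Alternatives covered scaling, pseudocount, filters, the model and each library left out. Python 3.11.15 and pandas 2.3.3 were used for the tables.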

Additional observations from a re-analysis of the deposited data

Results flagged for a closer look

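In 3 results the 2 genotypes moved in opposite directions over 3 h, and with 1 library per genotype and time the differences were not tested. Cars, a cysteinyl-tRNA synthetase, had a log2(RPKM + 1) difference of -0.23 in wild type and 1.09 in Tet2 KO, which are 1.32 apart. Cdkn1c, an imprinted inhibitor of cyclin-dependent kinases, was at 1.23 in wild type and -0.08 in Tet2 KO (Tet2 KO minus wild type -1.31). The median of the DNA replication list was -0.05 in wild type and 0.07 in Tet2 KO, which are 0.12 apart.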

How the results depend on the processing

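Members called by limma numbered 58 lower and 4 higher. Quantile normalization gave 6 and 1, libraries set to equal levels of the ribosomal protein and respiratory chain genes 302 lower, a pseudocount of 0.1 28 lower, a mean RPKM of at least 5 38 lower, no filter 8 and 0, and the 0 h and 3 h libraries alone 8 and 0 (1215 lower and 330 higher at an unadjusted p under 0.05). Leaving out each library gave 0 to 83 lower and 0 to 9 higher. Without the replicate block, in which genotype pairs the libraries, 57 were lower, 42 of them shared with the 58. The other alternatives stayed within 1.5 times, and every called locus that could be fitted kept its direction in all of them. By size, 384 lower, 1704 held and 314 higher members became 982, 4446 and 1313 in wild type alone, and 1142, 3820 and 1636 in Tet2 KO alone. They became 134, 3391 and 160 with a pseudocount of 5, and lower members 676 with 0.1. Scaling to those genes gave 784 lower and 77 higher, and 1310 held, of which 159 were among the 1704, quantile normalization 485 higher, and at least 5 RPKM at 0 h 192 higher of 7015, the same 2.74%. The median over members, -0.06 as the mean of the genotypes, was 0.03, -0.38, -0.04 and 0.00 under quantile normalization, the scaling, a pseudocount of 5 and at least 5 RPKM. The cause of these shifts was not tested. Depth is unknown, so no counting interval can be given.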

Other observations

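Some loci that hold small RNAs gave large differences that were unlike in the 2 genotypes, and the loci below were named after their values were seen. In the first and the second the signs were opposite. The locus of Taf1d, a subunit of an RNA polymerase I factor, listed with 11 symbols, was at 12596 RPKM at 0 h and 818 RPKM at 3 h in wild type, and at 159 and 11195 RPKM in Tet2 KO. The locus of Matr3 and Snhg4 was at 20309 and 6277 RPKM in wild type and at 8940 and 15048 RPKM in Tet2 KO. The called higher locus 9330159M07Rik with Gm26135 was at 26.1 and 1410 RPKM in wild type and at 1.87 and 552 RPKM in Tet2 KO. Both genotypes were higher at 3 h there, by unlike amounts, and likewise for Snord82, a locus with a single symbol, which was at 292 and 387 RPKM and at 181 and 1840 RPKM. The levels of such loci in a single library are a weak base for any change.

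Some genes lay near or past the 2-fold line without passing the test. Slc2a1, the glucose transporter GLUT1, was at 97.5 and 48.9 RPKM in wild type and at 83.5 and 38.7 RPKM in Tet2 KO (adjusted p = 0.102 by limma). The Notch target Hes1 was at 9.41 and 0.815 RPKM and at 6.85 and 0.620 RPKM (adjusted p = 0.0685), the single Wnt and Notch member of 9 that was lower by size. Of 38 Polycomb and H3 methylation members 3 were lower by size (7.89%, against 3.35% of all members), Kdm2a, Kdm6a and Suv39h1. Of 9 circadian and 14 imprinted members 0 were, near that share for lists so small.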
